A study of Mus musculus with 6 samples.

Results

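Regions of open chromatin on mouse chromosome 19 were compared between pro-B cell lines with a mutated and with an intact IGCR1, a control element of the immunoglobulin heavy chain (IgH) locus that lies between its VH and D gene segments. A region is a stretch of the genome where peaks of the 6 deposited ATAC-seq lists overlapped by at least 1 bp, and every region on chromosome 19 was taken, 4929 of 149724 in all. The chromosome was chosen by its share of the peaks in each list, which was larger in WT than in the mutated lines. All differences from WT below are therefore descriptions and carry no test.

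The libraries came from 3 untreated lines with 2 libraries each, made from 200000 cells per library with 11 PCR cycles and sequenced as single reads. CBE_1 and CBE_2 carry IgH alleles with the mutated IGCR1 (genotype IGCR1-/-), and WT carries the wild-type alleles. All 3 lines are RAG2-deficient pro-B cells from bone marrow of strain 129SV, so none of them can cut its antigen receptor genes with the RAG recombinase. Only 1 WT line was measured, so effects of the line and of the genotype cannot be told apart. The labels do not say whether duplicates came from separate cultures, and the spread between them may be technical. The identity of the cells could not be checked against marker genes, because the regions carry no gene names.

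ATAC-seq uses a transposase that inserts sequencing adapters into accessible DNA, so its peaks mark promoters, enhancers and insulators that are free of nucleosomes. The number of fragments at an element depends both on how open it is and on how many copies of the DNA a cell holds. A gain or loss of a chromosome changes the template for all elements along it, whereas regulatory factors act on single elements or domains. Chromosome 19 is the smallest mouse autosome and is rich in genes. RefSeq (GRCm38.p6) lists 705 protein-coding genes on it among 21900. They include Dntt, whose product adds untemplated nucleotides at V(D)J junctions, Blnk, an adaptor of pre-B cell receptor signalling, Ms4a1, which encodes CD20, and Cd5, a surface glycoprotein of lymphocytes. They also include Fas, which encodes a death receptor. That gene table and the peak lists use different builds, so no gene was assigned to a region.

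The 4929 regions lay between positions 3134016 and 61342430 of the chromosome (mm9, as all positions here) and covered 3774 kb. Their median width was 458 bp, against 450 bp on the other chromosomes. The narrowest spanned 200 bp and the widest 11662 bp. A peak was found in all 6 libraries at 1396 of them, called shared regions below. These made up 28.3% of the regions on chromosome 19 and 32.0% of those elsewhere (background over the whole genome 31.9%). Regions seen in a single library made up 31.3% on chromosome 19, against 27.8% elsewhere.

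The lists differ in length, and read depth is unknown. They hold 72318 and 80242 peaks in CBE_1, 94665 and 97522 in CBE_2, and 112241 and 106056 in WT. Numbers of peaks are therefore given as a share of their list, and the authors' fold over background is used only within a list. The relative fold divides the median fold of a set of shared regions by the median over the shared regions of all other chromosomes in the same list.

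Chromosome 19 held a smaller part of the accessible chromatin in both mutated lines than in WT, and its shared regions were weaker relative to those of the other chromosomes. There were 2021 and 2165 peaks on it in CBE_1, 2342 and 2404 in CBE_2, and 4255 and 3974 in WT. As a share of the list this was 2.79% and 2.70% in CBE_1, 2.47% and 2.47% in CBE_2, and 3.79% and 3.75% in WT. Wilson intervals at 95%, which cover counting error only, ended at 2.92% or below in mutated libraries and began at 3.63% or above in WT. The chromosome was chosen by this share, so the gap is not evidence of a difference. Groups without overlap were common among the other chromosomes too. All 4 mutated libraries were lower than both WT libraries on chromosomes 5, 10 and 13. They were higher on chromosomes 2, 7, 8, 9, 11, 17 and X. Measured in bases, chromosome 19 took 2.98% and 2.85% of the length covered by peaks in CBE_1, 2.57% and 2.58% in CBE_2, and 3.99% and 3.97% in WT. Across the 3 lines the order of the shares was not that of list length, since CBE_2 had longer lists than CBE_1 and a smaller share. The gap from WT nevertheless changed with list length. With the same number of best peaks from each list, the ratio of the mean share to WT was 0.792 in CBE_1 and 0.757 in CBE_2. With the full lists it was 0.729 in CBE_1 and 0.655 in CBE_2. How far list length accounts for the gap was not tested.

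Among the 20 chromosomes, chromosome 19 stood at or next to the low end in both lines. Its mean share in CBE_1 was 0.729 of that in WT, the lowest ratio of all, followed by chromosome 10 at 0.786. In CBE_2 the ratio was 0.655, and only chromosome 18, at 0.590, was lower. The median ratio of the other 19 chromosomes was 1.02 in CBE_1 and 1.08 in CBE_2. Chromosome 19 was not alone in being low in both mutated lines, since chromosome 10 had 0.865 in CBE_2 and chromosome 5 had 0.895 in CBE_1 and 0.929 in CBE_2. Chromosome 18 had a ratio of 1.10 in CBE_1.

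The same order held for the strength of regions that every library shares. The relative fold of the 1396 shared regions was 1.09 and 1.05 in CBE_1, 0.969 and 0.965 in CBE_2, and 1.26 and 1.26 in WT. The ratio to WT was 0.851 in CBE_1 and 0.767 in CBE_2, the lowest of the 20 chromosomes in both lines. The next lowest were chromosome 10 at 0.923 in CBE_1 and chromosome 18 at 0.864 in CBE_2. In WT no other chromosome had a relative fold above 1.11, and in CBE_2 the value of chromosome 19 lay inside the range of the others, from 0.815 to 1.05.

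**Figure D1:**
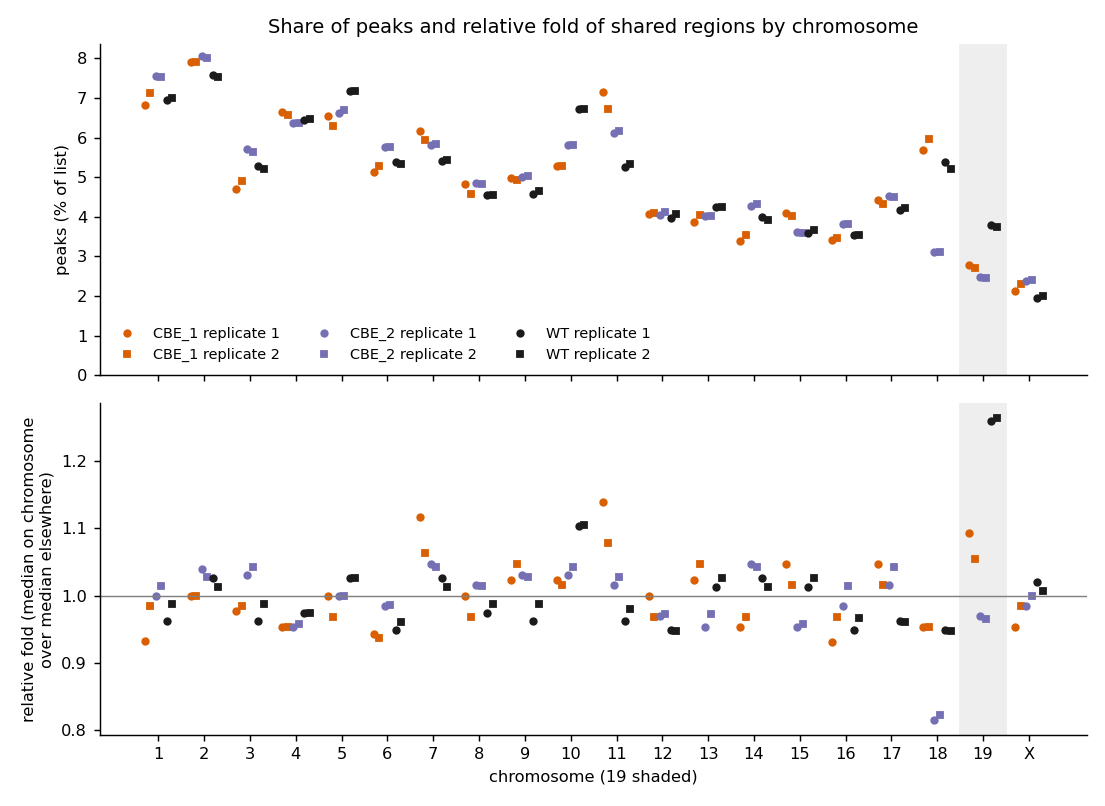
Share of each list (top, percent) and relative fold of shared regions (bottom, ratio with no unit) by chromosome, 1 point per library, with chromosome 19 shaded. On chromosome 19 the WT points sit at 3.79% and 3.75% and at a relative fold of 1.26, above all 4 mutated libraries in both panels.

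Peaks in shared regions were also narrower on this chromosome in the mutated lines. The highest peak of each shared region had a median width of 652.5 and 704 bp in CBE_1, 745 and 740 bp in CBE_2, and 1104.5 and 1034 bp in WT. Relative to shared regions elsewhere this was 1.05 and 1.02 in CBE_1, 0.980 and 0.970 in CBE_2, and 1.34 and 1.31 in WT. Over all peaks of the chromosome, shared or not, the median width went the other way, at 493 and 500 bp in CBE_1, 500 and 489 bp in CBE_2, and 445 and 453 bp in WT. The median fold of all its peaks did so too, at 5.28 and 4.90 in CBE_1, 5.03 and 4.83 in CBE_2, and 3.79 and 3.96 in WT. The larger number of peaks in WT thus came with many narrow and weak ones.

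The lower share extended along the chromosome. In 5 Mb bins counted from the first base, all 13 bins held a smaller share in both CBE_2 libraries than in either WT library, where 34.8% of the bins of the genome did. CBE_1 was lower in 12 of 13 bins, against a background of 47.3%, and all 4 mutated libraries were lower in 12 of 13, against 26.3%. A share above both WT libraries was found in 0 of 13 bins for CBE_1 (background 35.8%), for CBE_2 (49.5%) and for all 4 (28.3%). The exception for CBE_1 was the bin from 0 to 5 Mb, with 0.207% and 0.174% of the list in CBE_1, 0.152% and 0.167% in CBE_2, and 0.179% and 0.177% in WT.

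The size of the difference varied between bins. In CBE_1 the ratio to WT lay between 0.563 and 0.881 in the bins from 5 to 50 Mb and from 55 Mb on, and in CBE_2 between 0.593 and 0.786. It was 1.07 in CBE_1 and 0.896 in CBE_2 from 0 to 5 Mb. At the other extreme, 50 to 55 Mb had the lowest ratios, 0.427 in CBE_1 and 0.393 in CBE_2. That bin held 105 and 115 peaks in CBE_1, 124 and 131 in CBE_2, and 387 and 351 in WT. The neighbouring bin from 55 to 60 Mb followed in both lines, at 0.563 in CBE_1 and 0.593 in CBE_2, and the bin from 10 to 15 Mb also had 0.594 in CBE_2.

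To say how even the ratios were, the SD of the log2 ratio over 5 Mb bins was taken for every chromosome. On chromosome 19 it was 0.32 in CBE_1 (13 bins), against a median of 0.50 over the other 19 chromosomes with a range from 0.26 to 0.90. In CBE_2 it was 0.28, against a median of 0.27 and a range from 0.13 to 0.63. The bin ratios of chromosome 19 were thus more even than on most chromosomes in CBE_1, and about as even as on the others in CBE_2. This SD also depends on the number of peaks per bin, which was not matched between chromosomes. Around its low median, chromosome 18 in CBE_2 was uneven, with an SD of 0.63 and 15 of 19 bins lower, and so was chromosome 10 in CBE_1, with 0.63 and 19 of 26 bins lower. Copy number was not measured in these files, and its part in the difference was not tested.

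Bins of 1 Mb resolved the pattern further. Of 59 such bins, 50 were lower in CBE_1 (background 47.7%), 54 in CBE_2 (34.6%) and 48 in all 4 mutated libraries (27.1%). Higher were 2 bins in CBE_1 (30.2%), 3 in CBE_2 (39.2%) and 2 in all 4 (21.9%). Among the 50 bins with at least 20 peaks in each WT list, the median ratio was 0.728 in CBE_1, with quartiles of 0.567 and 0.842. In CBE_2 it was 0.659, with quartiles of 0.568 and 0.759. The corresponding 1583 bins of the other chromosomes had medians of 0.989 in CBE_1 and 1.04 in CBE_2, so most of chromosome 19 lay below the middle of the rest.

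A few bins did not follow. From 3 to 4 Mb there were 47 and 44 peaks in CBE_1, 53 and 57 in CBE_2, and 52 and 53 in WT, so the share was 1.24 times that of WT in CBE_1 and 1.19 times in CBE_2. From 24 to 25 Mb there were 39 and 41 peaks in CBE_1, 49 and 52 in CBE_2, and 49 and 48 in WT, a ratio of 1.18 in both lines. These were the bins with a higher share in all 4 mutated libraries. Among bins with at least 20 peaks in each WT list, the next highest ratio of CBE_1, 1.01, was found from 4 to 5 Mb, and that of CBE_2, 0.994, from 27 to 28 Mb. The bin from 19 to 20 Mb, with fewer peaks, was higher in CBE_2 only, with 4 and 8 peaks in CBE_1, 12 and 13 in CBE_2, and 10 and 8 in WT.

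**Figure D2:**
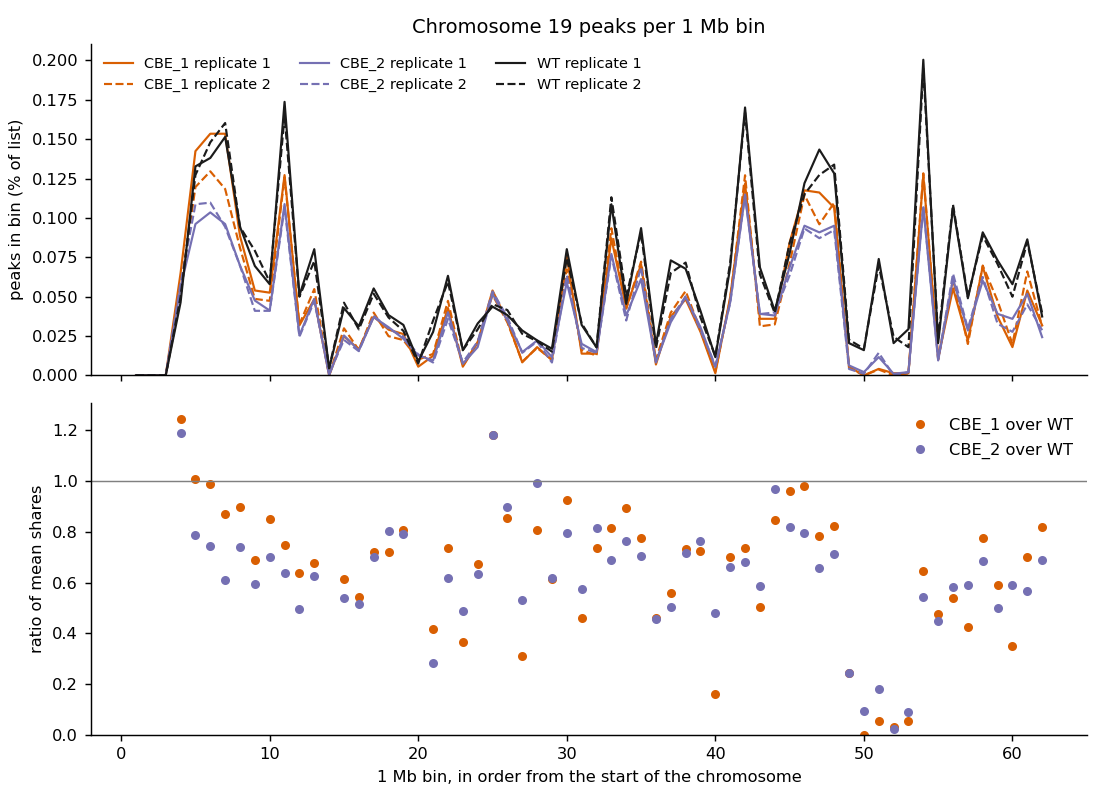
Share of each list by 1 Mb bin of chromosome 19 (top, percent, 1 line per library) and ratio of the mean share of each mutated line to WT (bottom), for bins with at least 10 peaks in each WT list. Most bins lie below 1, with medians of 0.728 for CBE_1 and 0.659 for CBE_2 over the bins with at least 20 such peaks, and the 5 bins from 48 to 53 Mb lie at or below 0.25 in both lines.

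Among bins with at least 20 peaks in each WT list, the 3 lowest ratios of both lines were found in a stretch from 48 to 53 Mb, whose borders were set after its values were seen. From 51 to 52 Mb there were 1 and 0 peaks in CBE_1, 1 and 0 in CBE_2, and 23 and 26 in WT. From 50 to 51 Mb there were 3 and 3 in CBE_1, 11 and 14 in CBE_2, and 83 and 74 in WT. The bin from 48 to 49 Mb held 4 and 4 peaks in CBE_1, 6 and 4 in CBE_2, and 23 and 24 in WT. Each WT library thus had at least 23 peaks in each of these bins, and each mutated library 14 or fewer.

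Over the whole stretch there were 9 and 8 peaks in CBE_1, 22 and 21 in CBE_2, and 180 and 161 in WT. As a share of the list this was 0.0124% and 0.00997% in CBE_1, 0.0232% and 0.0215% in CBE_2, and 0.160% and 0.152% in WT. In 12 of 1936 bins of 1 Mb genome-wide with at least 10 peaks in each WT list, the ratio was 0.25 or less in both lines. Of these, 5 were the consecutive bins from 48 to 53 Mb, out of 57 bins on chromosome 19, and 7 lay elsewhere (0.373% of the bins there), with no 2 of them adjacent. The limits of 0.25 and 10 peaks were not planned and admit all 5 bins of the stretch, so this count is a description only. The bins on either side held more peaks in the mutated lines. From 47 to 48 Mb there were 77 and 88 peaks in CBE_1, 90 and 90 in CBE_2, and 144 and 142 in WT, and from 53 to 54 Mb there were 92 and 103 in CBE_1, 101 and 105 in CBE_2, and 225 and 207 in WT.

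Most WT peaks of the stretch were weak. Their median fold was 2.92 and 2.97 in the WT libraries, against 3.90 and 4.06 over the rest of the chromosome. The stretch held 246 regions, of which 7 were shared (against 28.3% of regions on chromosome 19 and 31.9% genome-wide). In both WT libraries and no mutated library were 65 (against 20.6% on chromosome 19 and 8.68% genome-wide). A further 154 were found in 1 WT library only. Regions of a single library of any line made up 31.3% on chromosome 19 and 27.8% elsewhere. Mutated-only regions, with a peak in all 4 mutated libraries but in no WT library, numbered 0 (against 0.832% on chromosome 19 and 1.52% genome-wide). Of the 90 regions present in both WT libraries, 80 had no peak in either CBE_1 library and 67 none in either CBE_2 library. Over the whole chromosome, 49.7% and 54.3% of such regions had a peak in the CBE_1 libraries, and 61.6% and 68.7% on the other chromosomes. In the CBE_2 libraries it was 58.5% and 59.7%, and 77.4% and 78.4% on the others. These shares are per library, whereas the counts of the stretch ask for no peak in both libraries of a line, so the measures differ. Nor were the regions matched for strength, with which the presence of a counterpart varied.

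Shorter lists narrowed this difference without closing it. With the best 72318 peaks of each list, the stretch held 9 and 8 peaks in CBE_1, 15 and 14 in CBE_2, and 51 and 49 in WT. With the better 50% of each list it held 3 and 4 in CBE_1, 11 and 11 in CBE_2, and 30 and 30 in WT. Those lists stay unequal, with 36159 and 40121 peaks in CBE_1, 47332 and 48761 in CBE_2, and 56120 and 53028 in WT. Each WT count was above each mutated count at both settings, and the counts from the better 50% are not corrected for list length.

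The 7 shared regions of the stretch lay in 2 clusters, with 4 of them between 48006483 and 48026178 and 3 between 50333023 and 50346017. The strongest of the first cluster, at 48010982 to 48013532, had percentiles among shared regions of 87.9 and 90.1 in CBE_1, 94.7 and 95.1 in CBE_2, and 96.8 and 97.2 in WT. The strongest of the other, at 50344670 to 50346017, stood at 81.1 and 83.7 in CBE_1, 90.8 and 88.1 in CBE_2, and 97.7 and 98.6 in WT. A neighbour at 50338801 to 50339376 stood at 6.39 and 1.58 in CBE_1, 35.0 and 42.1 in CBE_2, and 49.7 and 47.3 in WT. At these 3 regions both lines were below WT, CBE_1 more so. That did not hold at 48017087 to 48018079, with 56.6 and 41.6 in CBE_1, 64.9 and 73.9 in CBE_2, and 67.7 and 63.9 in WT, where 1 CBE_2 library lay between the WT libraries and the other above both.

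Between and beyond those clusters ran the 2 longest gaps of the chromosome without a shared region. The gap from 48026179 to 50333022, 2307 kb long, held 0 and 0 peaks in CBE_1, 5 and 3 in CBE_2, and 59 and 53 in WT. The gap from 50346018 to 53049877, 2704 kb long, held 2 and 1 in CBE_1, 9 and 11 in CBE_2, and 105 and 92 in WT. WT-only regions numbered 28 of 80 in the shorter gap and 32 of 147 in the longer one, against 20.6% on the whole chromosome. The next longest gap of the chromosome, from 12876116 to 14299291, held few peaks in any line, with 1 and 3 in CBE_1, 4 and 4 in CBE_2, and 17 and 18 in WT.

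The relative fold of shared regions, which uses the same regions in every list, was lower in CBE_2 in all 13 bins of 5 Mb (background 35.5%). In CBE_1 it was lower in 9 of 13 bins (background 43%), and in all 4 mutated libraries in 9 of 13 (22.7%). Peak width at shared regions was lower in 13 of 13 bins in CBE_2 (30.9%), 11 in CBE_1 (37.8%) and 11 in all 4 (20.3%). It was higher in 0 bins in CBE_1 (26.7%) and in CBE_2 (39.8%), and the relative fold was higher in 1 bin in CBE_1 (31.9%) and 0 in CBE_2 (38.6%). The same side was seen in smaller bins. Among 41 bins of 1 Mb with at least 10 shared regions, the relative fold was lower in 27 in CBE_1 (34.5%), 35 in CBE_2 (35.8%) and 25 in all 4 mutated libraries (21.5%). It was higher in 4 in CBE_1 (37.6%), 3 in CBE_2 (40.6%) and 1 in all 4 (23.1%). Width was lower in 32 of the 41 in CBE_1 (31.7%), 35 in CBE_2 (30.5%) and 29 in all 4 (18.9%).

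CBE_1 and CBE_2 differed most from each other near the start of the chromosome. From 0 to 5 Mb the relative fold was 1.79 and 1.46 in CBE_1, 1.25 and 1.31 in CBE_2, and 1.40 and 1.34 in WT. CBE_1 was thus above WT there and CBE_2 below it. From 5 to 10 Mb it was 1.67 and 1.44 in CBE_1, 1.09 and 1.11 in CBE_2, and 1.55 and 1.57 in WT, so the CBE_1 libraries fell on either side of WT and CBE_2 lay below. CBE_1 lay closer to CBE_2 than to WT in the next bin. In the bin from 10 to 15 Mb the relative fold was 0.965 and 0.969 in CBE_1, 0.892 and 0.861 in CBE_2, and 1.36 and 1.32 in WT.

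Width at shared regions showed the same contrast between these bins. From 0 to 5 Mb the relative width was 1.70 and 1.54 in CBE_1, 1.40 and 1.27 in CBE_2, and 1.58 and 1.64 in WT. From 10 to 15 Mb it was 0.829 and 0.830 in CBE_1, 0.747 and 0.762 in CBE_2, and 1.39 and 1.33 in WT. The groups stood further apart there than at the start of the chromosome. Towards the end of the chromosome, from 55 to 60 Mb, the relative fold was 0.767 and 0.820 in CBE_1, 0.846 and 0.819 in CBE_2, and 0.981 and 0.914 in WT. All 3 lines were low there, and both mutated lines lay below WT while overlapping each other.

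**Figure D3:**
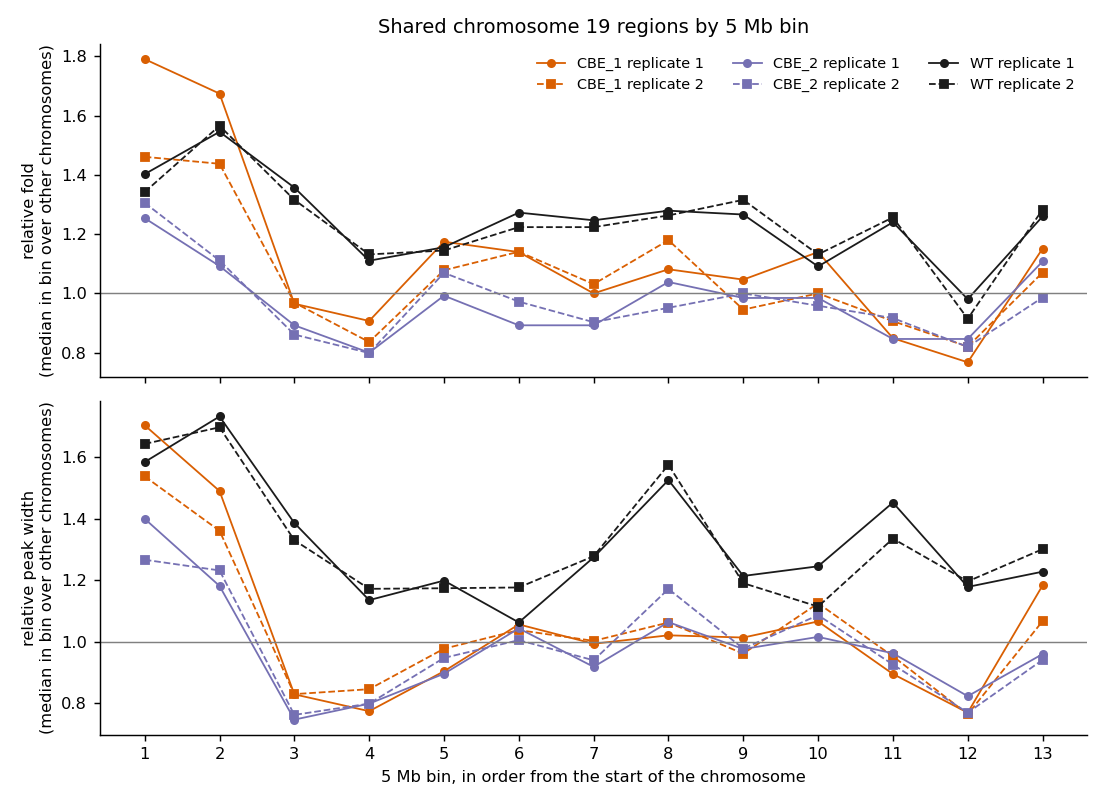
Median relative fold (top) and median relative peak width (bottom) of the shared regions of chromosome 19 by 5 Mb bin, both ratios to the shared regions of the other chromosomes in the same list, 1 line per library. CBE_2 lies below WT in all 13 bins of both panels, whereas CBE_1 lies above WT in fold in the bin from 0 to 5 Mb, at 1.79 and 1.46.

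Ranked against all 47767 shared regions of the genome within each list, the shared regions of chromosome 19 ranked lower in both mutated lines. Their median percentile was 53.5 and 52.5 in CBE_1, 48.7 and 48.1 in CBE_2, and 60.0 and 60.2 in WT. The top 10% of shared regions held 11.2% and 10.2% of them in CBE_1, 6.02% and 6.38% in CBE_2, and 14.7% and 14.5% in WT. The bottom 10% held 8.24% and 10.0% in CBE_1, 11.4% and 11.2% in CBE_2, and 4.08% and 4.87% in WT. In CBE_2 the chromosome thus had fewer of the strong and more of the weak regions than in WT.

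Counted region by region, 741 of the 1396 (53.1%) had a lower percentile in every mutated library than in either WT library, against 20.1% of shared regions genome-wide. The reverse held for 95 (6.81%), against 20.3%. CBE_1 ranked lower at 781 (55.9%, background 33.6%) and higher at 275 (19.7%, background 36.9%). CBE_2 ranked lower at 1131 (81.0%, background 33.2%) and higher at 134 (9.60%, background 33.2%). Set against each other, CBE_1 ranked above CBE_2 at 710 regions (50.9%, background 34.1%) and below it at 258 (18.5%, background 31.5%).

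Differences in percentile from WT were mostly below 0 on chromosome 19. The median difference in percentile from WT was -5.60 in CBE_1, against 0.552 on the other chromosomes. In CBE_2 it was -10.9, against 0.204. The middle 50% of the regions lay between -14.5 and 1.41 in CBE_1 and between -17.8 and -4.75 in CBE_2. The SD over regions was close to that elsewhere, at 15.8 on chromosome 19 and 15.3 on the others in CBE_1, and at 15.3 and 14.1 in CBE_2. A difference below 0 was found at 70.2% of the regions in CBE_1 and 86.6% in CBE_2.

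By 5 Mb bin the median difference was below 0 in all 13 bins in CBE_2, between -16.5 at 10 to 15 Mb and -7.11 at 0 to 5 Mb. In CBE_1 it was 2.38 at 0 to 5 Mb and -1.45 at 5 to 10 Mb, and reached -11.3 at 10 to 15 Mb. The share of regions below WT in all 4 mutated libraries was 22.7% at 0 to 5 Mb and 40.8% at 5 to 10 Mb. It was 70.5% at 10 to 15 Mb, the highest of the 13 bins, and between 41.2% and 67.2% in the bins after it. Of the 88 shared regions from 0 to 5 Mb, CBE_1 ranked higher than WT at 47.7% and lower at 23.9%, whereas CBE_2 ranked lower at 65.9%.

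Strong and weak shared regions both took part. Split into 4 classes of equal size over the genome by mean percentile over the 6 libraries, the median difference from the weakest class to the strongest was -8.01, -10.1, -5.17 and -1.99 in CBE_1. In CBE_2 it was -12.7, -16.9, -11.4 and -7.90. The share below WT in all 4 mutated libraries was between 48.46% and 59.9% in each class, against 16.5% to 21.7% elsewhere. In the strongest class percentiles have little room to move, so differences there are bounded by the scale.

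**Figure D4:**
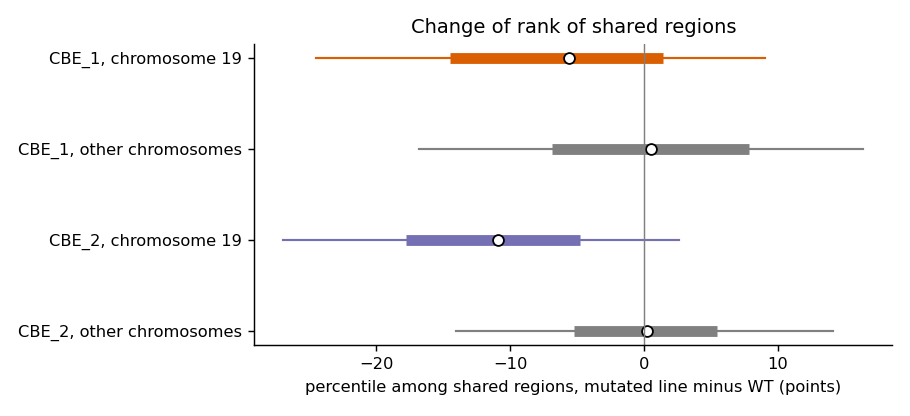
Difference in percentile among shared regions, mutated line minus WT (percentile points), on chromosome 19 and on the other chromosomes (grey) for CBE_1 and CBE_2; circles are medians, thick bars span 25% to 75% and thin bars 10% to 90% of regions. Chromosome 19 has medians of -5.60 and -10.9, and the other chromosomes of 0.552 and 0.204.

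Regions found in some lines and not in others were mostly regions of WT. In both WT libraries and none of the 4 mutated libraries, 1016 regions of chromosome 19 (20.6%) were found, against a background of 8.68%. The opposite pattern was found at 41 (0.832%, background 1.52%). Patterns that set 1 mutated line apart were not more frequent than in the genome. CBE_1 alone held 10 (0.203%, background 0.667%), CBE_2 alone 47 (0.954%, background 3.14%), CBE_1 alone lacked 177 (3.59%, background 5.05%) and CBE_2 alone lacked 31 (0.629%, background 0.653%). These small counts depended on single libraries. Regions of CBE_1 alone numbered 33 without CBE_1 replicate 1 and 63 without CBE_1 replicate 2, and those of CBE_2 alone 78 without CBE_2 replicate 1 and 77 without CBE_2 replicate 2. Regions lacking in CBE_1 alone numbered 301 without CBE_1 replicate 2. Those lacking in CBE_2 alone numbered 104 when CBE_1 replicate 1 was left out, 71 for CBE_1 replicate 2 and 59 for CBE_2 replicate 2. A pattern needs fewer matching libraries when 1 is left out.

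WT-only regions were spread over the chromosome rather than gathered in 1 place. They made up 12.4% of the regions from 0 to 5 Mb and between 18.3% and 24.0% in each of the other 12 bins. Their distance to the nearest shared region had a median of 5.99 kb, against 11.4 kb on the other chromosomes. They were mostly weak, as were WT-only regions of the other chromosomes. In the WT lists their median percentile was 26.2, against 29.2 elsewhere, and 126 (12.4%) stood above 50, against 16.4% elsewhere. With the best 72318 peaks of each list, WT-only regions numbered 415 of 3035 (13.7%), against 5.95% elsewhere, and with the better 50% of each list 463 of 2116 (21.9%), against 11.5% elsewhere. Without WT replicate 1 the count was 1682 and without WT replicate 2 it was 1976, since a region then needs a peak in the remaining WT library only.

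Whether a WT peak had a counterpart in the mutated lines depended on its strength. Of 3136 regions on chromosome 19 present in both WT libraries, 49.7% and 54.3% had a peak in the CBE_1 libraries and 58.5% and 59.7% in the CBE_2 libraries. On the other chromosomes, with 82285 such regions, it was 61.6% and 68.7% in CBE_1 and 77.4% and 78.4% in CBE_2. Chromosome 19 therefore kept fewer of its WT regions in all 4 libraries.

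The gap was widest among weak and middling WT peaks and closed among the strongest. When the regions were cut into 10 classes by their percentile in the WT lists, the weakest class kept 6.95% and 7.19% in CBE_1 and 9.59% and 8.15% in CBE_2 on chromosome 19. That class kept 18.3% and 26.5% in CBE_1, and 34.4% and 36.0% in CBE_2, on the other chromosomes. In class 5 chromosome 19 kept 36.3% and 49.1% in CBE_1 and 62.6% and 63.3% in CBE_2, and the other chromosomes 58.4% and 69.6% in CBE_1 and 82.7% and 83.5% in CBE_2. Of the strongest class, chromosome 19 kept 99.1% to 99.7% and the other chromosomes 99.3% to 99.8%. With nearly all regions kept, presence leaves little room for a difference there. By rank, 52.5% of the strongest of the 4 classes of shared regions on chromosome 19 lay below WT in all 4 mutated libraries, against 16.5% elsewhere. The difference of chromosome 19 from the others, averaged over the 2 libraries, was largest in class 5 for CBE_1, at -21.3 percentage points, and in class 2 for CBE_2, at -36.1.

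**Figure D5:**
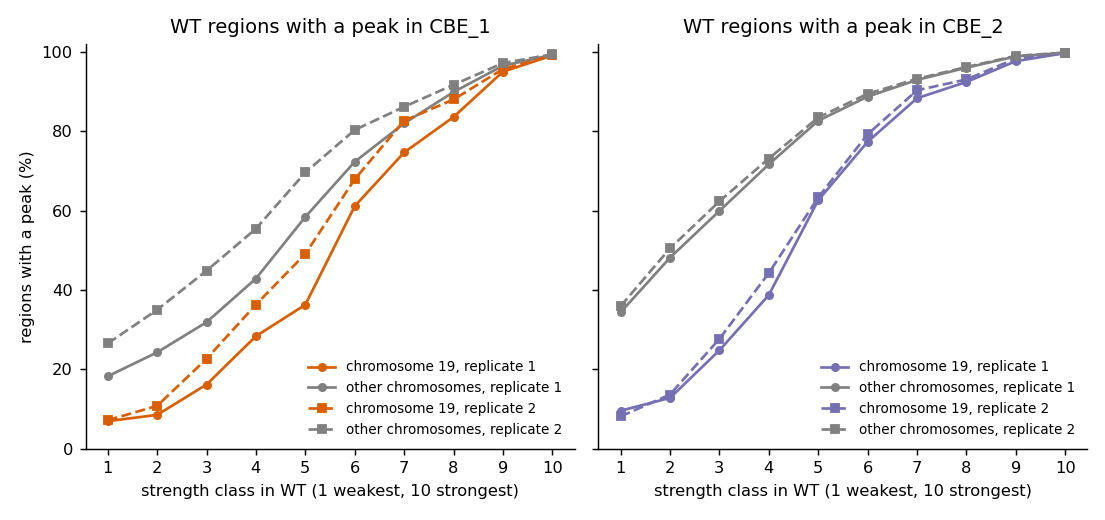
Share of regions present in both WT libraries that also had a peak in each mutated library (percent), by class of WT strength from 1 (weakest) to 10, for CBE_1 (left) and CBE_2 (right), with the other chromosomes in grey. Chromosome 19 lies below the other chromosomes in the weak and middle classes, at 6.95% to 9.59% in class 1, and meets them at above 99% in class 10.

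Single regions show what these shifts look like. The 3 strongest WT-only regions all lay in the stretch from 48 to 53 Mb. At 48723301 to 48725325 the mutated libraries had no peak, and the WT folds were 18.5 and 18.8. The regions at 50219902 to 50222005 and at 50274653 to 50276524 likewise had no peak in the mutated libraries, with folds of 16.8 and 16.0, and of 15.0 and 15.8, in WT. In both WT lists these 3 stood at percentile 89.2 or higher. Of the 65 WT-only regions of the stretch, 8 (12.3%) stood above percentile 50 in WT, about the same as the 12.4% over the rest of the chromosome.

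Regions of the mutated lines alone were fewer, and some were strong. At 44340615 to 44342391 the folds were 27.1 and 22.0 in CBE_1 and 22.3 and 22.0 in CBE_2, with no peak in WT. At 11119266 to 11120350 the folds were 20.1 and 13.2 in CBE_1 and 13.2 and 12.9 in CBE_2, and at 24247981 to 24249283 they were 16.3 and 13.0 in CBE_1 and 15.6 and 13.9 in CBE_2, again with no peak in WT. That last region belongs to 3 consecutive regions, from 24238409 to 24249283, that were missing from WT among the regions of all 4 mutated libraries. It lies in 1 of the 2 bins of 1 Mb with a higher share in all 4 mutated libraries.

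Some regions distinguished the mutated lines from each other. Only CBE_1 had a peak at 5406201 to 5407568, with folds of 6.33 and 5.94, and only CBE_2 had one at 57551210 to 57551684, with folds of 6.01 and 5.58. CBE_1 had no peak at 56845030 to 56849706, where the folds were 10.1 and 8.16 in CBE_2 and 18.1 and 19.2 in WT. CBE_2 had no peak at 47043203 to 47046115, where the folds were 13.4 and 12.7 in CBE_1 and 10.5 and 10.9 in WT. The longest run of regions missing from CBE_1 alone was 5, from 50393864 to 52997914, inside the stretch of few peaks.

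The same patterns were found at other named regions. Only in CBE_1 were there peaks at 7218178 to 7218871 (folds of 6.18 and 7.09) and at 45496726 to 45497180 (6.48 and 5.32). Only in CBE_2 were there peaks at 19477353 to 19477860 (5.40 and 4.72) and at 57579706 to 57580340 (4.90 and 5.58). Missing from CBE_1 were 42844412 to 42845582, with folds of 8.46 and 9.23 in CBE_2 and 11.4 and 12.3 in WT, and 57515583 to 57516500, with 8.34 and 9.13 in CBE_2 and 9.09 and 10.8 in WT. Missing from CBE_2 were 53912963 to 53914028, with folds of 6.48 and 7.40 in CBE_1 and 9.95 and 10.3 in WT, and 33127282 to 33128394, with 6.79 and 5.42 in CBE_1 and 7.57 and 7.03 in WT. Folds are not comparable between lists of different background, so within each sentence they show presence and rough strength only.

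Against the general trend, a few shared regions ranked far higher in both mutated lines. At 4282548 to 4284163 the percentile was 88.1 and 82.8 in CBE_1, 80.6 and 80.6 in CBE_2, and 7.45 and 6.48 in WT. At 19184488 to 19186515 it was 73.5 and 71.2 in CBE_1, 75.6 and 81.7 in CBE_2, and 1.12 and 2.76 in WT. These sites were among the weakest shared regions in WT and in the upper part of the range in both mutated lines. Differences (mean of the mutated minus mean of the WT libraries) of 71.8, 66.3 and 63.5 percentile points were found at 57684055 to 57686878, 34952158 to 34954334 and 60936723 to 60938160.

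The largest differences in the other direction were of similar size. At 16447219 to 16448288 the percentile was 18.1 and 16.6 in CBE_1, 6.23 and 4.42 in CBE_2, and 85.1 and 84.8 in WT. At 47960854 to 47963328, close to the start of the stretch of few peaks, it was 39.5 and 33.7 in CBE_1, 30.1 and 34.3 in CBE_2, and 99.7 and 99.6 in WT. That site was near the top of all shared regions of the genome in WT and below the middle in the mutated lines. Differences of -57.7, -56.1 and -54.2 percentile points were found at 11881507 to 11882646, 42232159 to 42233272 and 23519375 to 23520334.

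The 3 widest shared regions all lay between 4 and 7 Mb. They were picked by their merged width, which wide WT peaks largely set. Fuller coverage in fewer pieces in WT was thus favoured by the choice. Wide regions of other chromosomes were not measured in this way. At 4296237 to 4307898, a region of 11662 bp, peaks covered 76.9% and 82.5% of the bases in CBE_1, 68.5% and 69.9% in CBE_2, and 94.9% and 94.7% in WT. The peaks numbered 6 and 7 in CBE_1, 7 and 8 in CBE_2, and 3 and 3 in WT, so the covered part lay in more pieces in the mutated lines. At 5839983 to 5850770 peaks covered 69.3% and 67.2% in CBE_1, 64.2% and 67.2% in CBE_2, and 95.9% and 98.6% in WT.

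The third of these regions, at 6495423 to 6505535, held small peaks in the mutated lines. Peaks covered 17.96% and 25.8% of its 10113 bp in CBE_1, 27.0% and 27.1% in CBE_2, and 98.2% and 94.6% in WT. Its highest peak was 783 and 824 bp wide in CBE_1, 1535 and 892 bp in CBE_2, and 9676 and 8398 bp in WT. Its percentile among shared regions was 55.1 and 49.3 in CBE_1, 40.6 and 40.4 in CBE_2, and 74.0 and 71.9 in WT.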

How the data were processed

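Accessible chromatin of 3 mouse pro-B lines was profiled by ATAC-seq in 6 libraries, grouped by the labels and numbered in accession order. The submitters' processing notes name Trimmomatic, Bowtie2, SAMtools and Picard without version numbers, and the genome build mm9. How peaks were called, and any shift of reads for the transposase, is not given in the sources used here. For each library the authors deposited 1 list with peak positions, a score, a fold (ratio to background), a −log10 p-value, a −log10 q-value and a summit offset. The deposited score repeats the q-value on another scale and was not used. The authors' fold served to rank and describe peaks within a list, and their −log10 p-value to take the best peaks of a list. Reads were not analysed here, so depth is unknown. Wilson intervals at 95% cover counting error only.

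Peaks overlapping by at least 1 bp were merged with Python 3.11.15, pandas 2.3.3 and NumPy 2.4.6. Intervals used SciPy 1.17.1, and figures matplotlib 3.10.9. The merging, patterns, relative fold and percentile counts were tested on simulated lists, and the binning was not. A peak was put in a bin of 5 Mb or 1 Mb by its middle. A set is lower in a line when both its libraries lie below both WT libraries. Within a list, the fold of the 47767 shared regions was turned into a percentile. Background percentages are the same counts over all bins or regions of the genome. Positions are 1-based.

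Named were all 5 Mb bins, the 3 highest and 3 lowest 1 Mb bins per line with at least 20 peaks in each WT list, and the 3 strongest regions of each of 6 presence patterns. Also named were the 5 shared regions with the largest difference in each direction and the 3 widest. The regions and these rules were chosen with earlier results of these data known. Alternatives were lists of equal length, the better 50% of each list, other denominators, bins and summaries, and leaving out each library. Leaving out 48 to 53 Mb or 0 to 10 Mb was chosen after seeing the data. No test was run, since the chromosome was chosen for this contrast.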

Additional observations from a re-analysis of the deposited data

Results flagged for a closer look

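At the start of chromosome 19 the mutated lines lay on opposite sides of WT in relative fold, but not in every measure. From 0 to 5 Mb the relative fold of the shared regions was above both WT libraries in both CBE_1 libraries and below both WT libraries in both CBE_2 libraries. The ratio to WT of CBE_1 minus that of CBE_2 was 0.252. The CBE_1 libraries stood apart from each other, at 1.79 and 1.46. In that bin CBE_1 overlapped WT in median percentile (68.6 and 64.3 against 64.5 and 62.6) and in relative width (1.70 and 1.54 against 1.58 and 1.64). From 3 to 4 Mb the relative fold of CBE_2, at 1.18 and 1.25, was not below that of WT, at 1.12 and 1.19. This difference between the lines was not tested.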

How the results depend on the processing

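Of 178 values recomputed under alternatives, 123 stayed within the spread between libraries or within 1.5 times the count, and 55 moved further. A change of direction was possible only for share ratios, relative fold ratios and median percentile differences, and none of these changed direction. With all lists cut to 72318 peaks, the share ratio was 0.792 in CBE_1 and 0.757 in CBE_2, and in CBE_2 the relative fold ratio was 0.776 and the median percentile difference -11.5. WT-only regions then numbered 415, CBE_1-only 30, CBE_1-absent 87 and CBE_2-absent 54. With the better 50% of each list the share ratios were 0.893 in CBE_1 and 0.803 in CBE_2, the relative fold ratios 0.886 and 0.789, and the percentile differences -6.36 and -14.2. Counts were 463 WT-only, 27 CBE_2-only and 98 CBE_1-absent regions. By covered bases the share ratio of CBE_2 was 0.647, and 0.641 when chromosomes 10, 11, 18 and X were left out of the list. In 1 Mb bins 50, 54 and 48 were lower in CBE_1, CBE_2 and all 4 mutated libraries. These counts are out of 59 bins in place of 13, so they are larger by construction. Relative fold ratios of CBE_1 and CBE_2 were 0.913 and 0.810 in the stronger 50% of shared regions, and 0.875 and 0.792 from the mean log2 fold. Without chromosomes 10, 11, 18 and X the ratio of CBE_2 was 0.752. Without 48 to 53 Mb, a choice made after seeing the data, the share ratios were 0.757 in CBE_1 and 0.677 in CBE_2 and the relative fold ratio of CBE_2 0.770. Without 0 to 10 Mb, chosen likewise, the percentile difference of CBE_1 was -7.20 and the relative fold ratios 0.830 in CBE_1 and 0.760 in CBE_2. The cause of these changes was not tested.

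Leaving out each library in turn gave share ratios of 0.716 to 0.741 in CBE_1 and 0.651 to 0.659 in CBE_2, and relative fold ratios of 0.812 to 0.858 and 0.752 to 0.762. Percentile differences were -5.90 to -4.73 in CBE_1 and -10.9 to -10.2 in CBE_2. Lower 5 Mb bins numbered 12 to 13 in CBE_1 and 13 to 13 in CBE_2. WT-only regions numbered 1056 to 1976, with 1682 without WT replicate 1 and 1976 without WT replicate 2. CBE_1-only regions numbered 11 to 63, with 33 without CBE_1 replicate 1 and 63 without CBE_1 replicate 2. CBE_2-only regions numbered 53 to 78, with 78 without CBE_2 replicate 1 and 77 without CBE_2 replicate 2. CBE_1-absent regions numbered 187 to 301, the highest without CBE_1 replicate 2. CBE_2-absent regions numbered 34 to 104, with 104 when CBE_1 replicate 1 was left out, 71 for CBE_1 replicate 2 and 59 for CBE_2 replicate 2. With fewer libraries a pattern asks for fewer matches, so these counts grow by construction.

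No paired analysis was possible because the labels give the libraries no shared replicate numbers and no result comes from a test. Depth is unknown, so a missing peak shows that a list does not hold one and not that the site is closed.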
